A study of Mus musculus with 12 samples.

Results

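The genes described here are 10 transcription factors that mark position in the embryonic limb and trunk: Tbx2, Tbx3, Tbx4, Tbx5, Tbx15, Pitx1, Emx2, Shox2, Prrx1 and Hand2. They were taken as a list of names, whose choice is described with the processing, and each was found once among the 34866 genes of the deposited table, through its Ensembl identifier in the GENCODE annotation of GRCm38. RNA was measured in mouse embryonic fibroblasts (MEFs), connective tissue cells grown out of embryos, here taken at embryonic day 13 from 129S1/SvImJ WT mice and from a Sirt3-/- stock and immortalized by transfection with an SV40 plasmid. The 12 libraries form 4 groups of 3, male and female, each WT or KO, with sex assigned by PCR for Sry. The labels name no treatment, and RNA was taken from cells of passage 6, 48 h after seeding. Levels are in TPM, a share of all transcripts that is corrected for gene length and for the size of each library. Read totals cannot be recovered from them, and depth is therefore unknown. Cultures were seeded in triplicate and the number of lines per group is not given in the sources used here, so p-values measure the spread among 3 libraries that may be technical, and effects of genotype, of sex and of the individual line cannot be told apart.

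In the embryo, these factors give mesenchyme its place. Tbx5 marks the forelimb bud and Tbx4 with Pitx1 the hindlimb bud, Hand2 marks posterior limb mesenchyme upstream of sonic hedgehog, Tbx2 and Tbx3 are T-box repressors of the limb bud margins, Prrx1 is expressed throughout limb mesenchyme, and Shox2 acts in the proximal limb skeleton. Tbx15 and Emx2 are needed for the shoulder blade, and fibroblasts taken into culture often keep part of the positional expression of their site of origin.

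Sirt3, the gene named in the KO label (chromosome 7, 140863666 to 140882309, minus strand), was read first. Its mean was 7.61 TPM in male WT, 10.3 in male KO, 7.90 in female WT and 8.27 in female KO libraries, and the ranges of KO and WT overlapped in both sexes. Sirt3 mRNA was thus no lower in the libraries labelled KO (male log2 fold change 0.39, limma adjusted p = 0.0981; female log2 fold change 0.059, limma adjusted p = 0.772). Which exons the KO allele lacks is not given in the sources used here, so a value for the whole gene leaves unknown whether the transcript is complete. Below, KO names the label only. Genes of the Y chromosome matched the labels of sex: Eif2s3y had at least 40.3 TPM in each male library and was listed at 0 in each female one. Ddx3y had at least 31.7 TPM in male libraries and at most 0.218 in female ones. For Kdm5d these limits were 9.01 and 0.682 TPM. Xist is not analysed here.

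Markers of other cell types were read next, since MEF cultures can hold several. All 11 fibroblast markers were in the table and 10 averaged 1 TPM or more, with summed levels of 10072 ± 608 TPM in male WT, 12321 ± 372 in male KO, 8335 ± 98.6 in female WT and 10348 ± 198 in female KO (SD, n = 3). Col1a1 was the most abundant in 3 groups and Vim in female WT, while Lum stayed under 1 TPM everywhere. Fibroblast identity was therefore present in every group. The 7 cartilage markers summed to 15.8, 21.0 and 19.5 TPM in the male WT libraries, 53.4, 60.5 and 49.6 in male KO, 22.5, 20.8 and 26.2 in female WT and 50.2, 47.6 and 47.8 in female KO. Sox9 led in WT and Col2a1 in KO, and Col9a1 and Matn1 stayed under 1 TPM in all libraries. The cartilage sum was higher in each KO library than in each WT library.

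The 8 epithelial markers summed to 77.8, 77.9 and 76.1 TPM in the male WT libraries, 7.90, 8.87 and 8.20 in male KO, 19.8, 23.0 and 22.6 in female WT and 7.40, 7.75 and 10.3 in female KO. Krt19 was the most abundant in each group, and Cdh1, Krt5, Krt14, Krt8 and Cldn4 stayed under 1 TPM everywhere. The 6 mesothelial markers summed to 29.8, 34.8 and 32.6 TPM in the male WT libraries, 7.63, 6.21 and 5.12 in male KO, 18.5, 15.5 and 16.9 in female WT and 6.80, 5.58 and 6.53 in female KO, led by Msln except in male KO, where Wt1 led. Both sums were lower in each KO library than in each WT library of the same sex. In males the 2 tested mesothelial markers went opposite ways: Msln fell by 3.70 on the log2 scale (SE 0.16, limma adjusted p = 1.75e-05), and Wt1 rose by 1.25 (SE 0.20, limma adjusted p = 0.00592), from 1.45 TPM to 4.83. In female KO both were called lower, Wt1 by 1.55 (SE 0.18, limma adjusted p = 0.00337), from 3.34 TPM to 0.479. Upk3b, Lrrn4 and Muc16 stayed under 1 TPM. The 9 muscle markers summed to 0.131, 0.691 and 0.605 TPM in the male WT libraries, 2.61, 5.57 and 0.999 in male KO, 6.32, 6.78 and 6.92 in female WT and 1.65, 3.02 and 1.39 in female KO, with Myf5 and Myf6 at 0 throughout. Des led in female WT and Tnnt3 in the other groups, and Des fell by 2.70 in female KO (SE 0.17, limma adjusted p = 0.000295), from 6.26 TPM to 0.128. Des passed the filter only through female WT, where it is high, and no conclusion is drawn from its call. Tnnt3 rose by 1.53 in male KO (SE 0.44, limma adjusted p = 0.0490), from 0.186 TPM to 2.87, and by 1.17 in female KO (SE 0.26, limma adjusted p = 0.0336), from 0.286 TPM to 1.89. Both calls were lost without the filter. The male call was also lost without any 1 male WT library or male KO replicate 1 or 2, with values from 1.07 to 1.99 over the libraries left out (limma adjusted p up to 0.131). The female call was also lost with a pseudocount of 0.1, with all 12 libraries in 1 fit and without female WT replicate 2 or 3 or any 1 female KO library, with values from 0.98 to 1.32 (limma adjusted p up to 0.0913). Of the 6 leukocyte markers, Adgre1 and Tyrobp were at 0 throughout, and the sum ran from 4.18 to 11.4 TPM, mainly Cd68. Csf1r had a mean of 1.41 TPM in male KO and at most 0.287 in the other groups. The 6 endothelial markers had mean sums between 1.53 TPM in male KO and 5.35 in female WT, mainly Kdr, which fell by 1.06 in female KO (SE 0.13, limma adjusted p = 0.00368), from 4.77 TPM to 1.76. The 6 cardiac markers had mean sums of 10.98 TPM in male WT, 9.56 in male KO, 20.5 in female WT and 20.9 in female KO, led by Actn2 in males and Tnnt2 in females. The part of these marker levels in the results below was not tested. In such bulk RNA, fewer cells of a type and less RNA per cell cannot be told apart.

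A comparison below calls a gene where limma on log2(TPM+1), a log2 scale with a pseudocount of 1, gave an adjusted p under 0.05 (Benjamini-Hochberg over all genes tested). The filter was a mean of 1 TPM or more over the 12 libraries, which 8 of the 10 genes and 12504 genes in all passed. Tbx2 (mean 0.632 TPM) and Tbx4 (0.639 TPM) were read from a fit of all 22401 genes above 0 in any library.

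The shares and medians of all genes beside the counts and medians below are description and no test, given how the 10 genes and the lists were chosen (see the processing). Between male KO and male WT, 6 of the 8 tested genes were called, where 21.6% of all genes tested were: Tbx3, Tbx5 and Shox2 rose, and Pitx1, Prrx1 and Hand2 fell. Tbx2 and Tbx4 fell too in the fit without a filter, which called 10.4% of its genes. Between female KO and female WT, 5 of 8 were called against 11.5% of all genes: Tbx3, Shox2, Prrx1 and Hand2 rose and Tbx5 fell. The female fit without a filter called 5.03% of its genes and neither Tbx2 nor Tbx4. Of all genes called, 1343 were higher and 1364 lower in male KO, and 704 higher and 730 lower in female KO. Under median-of-ratios scaling these were 1456 higher and 1228 lower in male KO, and 841 and 577 in female KO. Leaving out any 1 female library left 774 to 835 genes called in females, and the count of the 8 tested genes fell from 5 to 3 without female WT replicate 1, female WT replicate 3 or female KO replicate 1.

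The sexes were compared within each genotype with the same test. Male WT and female WT differed in 7 of the 8 (12.8% of all genes, and 5.69% without a filter), 6 higher in male WT and Tbx3 lower. Male KO and female KO also differed in 7 (16.6% and 7.52%), with Tbx5, Tbx15, Emx2 and Shox2 higher in male KO and Pitx1, Prrx1 and Hand2 lower. Over all genes, 1603 were called between the WT sexes, against 1053 without male WT replicate 3, 1068 without female WT replicate 1 and 1037 without female WT replicate 3. Between the KO sexes 2070 were called, against 1328 without male KO replicate 3. The interaction term, the male KO effect minus the female one, was called for Tbx5, Pitx1, Prrx1 and Hand2 (4 of 8, against 13.0% of all genes and 6.98% without a filter). Neither Tbx2 nor Tbx4 was called in these 3 comparisons. Between the KO sexes Tbx2 passed under median-of-ratios scaling (limma adjusted p = 0.0478) and with all 12 libraries in 1 fit (limma adjusted p = 0.0319). Tbx4 passed there with a pseudocount of 0.1 (limma adjusted p = 0.0488) and without female KO replicate 3 (limma adjusted p = 0.0149). The interaction of Tbx2 passed without male WT replicate 3 (limma adjusted p = 0.0390). The 5 comparisons share groups, so they are not independent of each other.

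The median absolute log2 fold change of the 8 tested genes was 1.16 in the male KO comparison and 0.61 in the female one, beside 0.17 and 0.13 over all genes tested. It was 1.01 between the WT sexes and 1.07 between the KO sexes, beside 0.13 and 0.15. The plot of log2 fold changes shows all 10 genes with their standard errors.

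**Figure D1:**
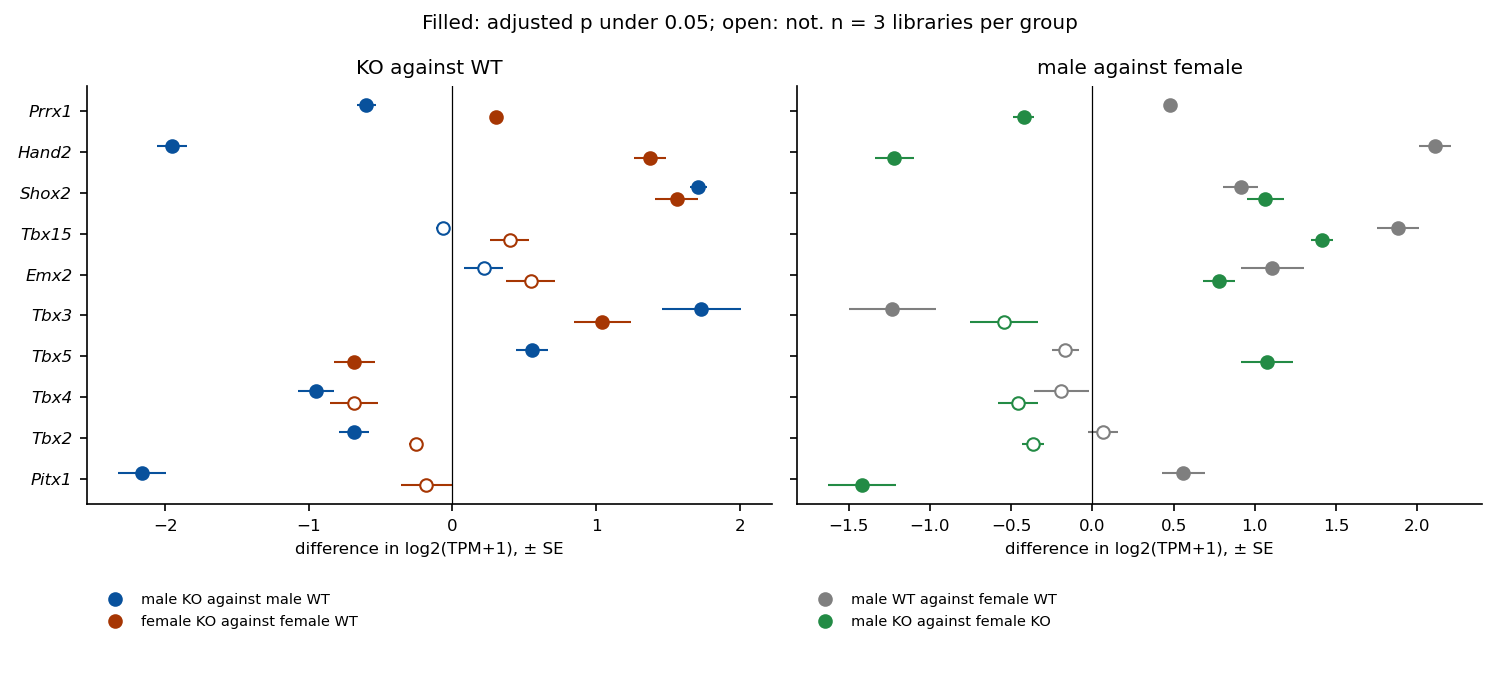
Difference in log2(TPM+1) for each of the 10 genes (vertical axis), with its standard error as a horizontal bar. The left panel compares KO with WT in males (blue) and females (red), and the right panel males with females in WT (grey) and KO (green). Filled points had a limma adjusted p under 0.05. Prrx1, Hand2 and Tbx5 lie on opposite sides of 0 in the left panel, and Shox2 and Tbx3 lie to the right of 0 in both sexes.

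Prrx1 (ENSMUSG00000026586.16, chromosome 1, 163245119 to 163313710, minus strand), a paired-type homeodomain factor of limb and facial mesenchyme, was the most abundant of the 10. Replicates 1 to 3 of male WT had 141, 137 and 140.2 TPM, and those of male KO 86.2, 101 and 88.7. Female WT had 99.3, 98.9 and 101 TPM, and female KO 125, 121 and 124. Male WT stood highest, female KO next, and female WT and male KO overlapped at the bottom. Prrx1 fell by 0.60 on the log2 scale in male KO (SE 0.064, limma adjusted p = 0.000876), and rose by 0.30 in female KO (SE 0.032, limma adjusted p = 0.00236). The interaction was -0.90 (SE 0.073, limma adjusted p = 9.77e-06). Each of these calls was kept in every alternative run.

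Hand2 (ENSMUSG00000038193.4, chromosome 8, 57320983 to 57324633, plus strand), the basic helix-loop-helix factor of posterior limb, heart and jaw mesenchyme, moved the same way at a lower level. It had 18.1, 17.7 and 16.7 TPM in male WT, but 3.61, 4.33 and 3.45 in male KO. In female WT it had 3.29, 2.99 and 3.602 TPM, and in female KO 10.96, 10.1 and 9.33. No male WT or female KO library came near the male KO and female WT libraries, which overlapped each other. Hand2 fell by 1.95 on the log2 scale in male KO (SE 0.11, limma adjusted p = 4.01e-05) and rose by 1.38 in female KO (SE 0.11, limma adjusted p = 0.000770). Its interaction of -3.33 (SE 0.15, limma adjusted p = 1.35e-07) was the largest in size among the 10 genes with the pseudocount of 1. Over the alternatives the interaction of Pitx1 reached -4.71, and that of Hand2 went no further than -3.78. Male WT lay above female WT by 2.11 (SE 0.097, limma adjusted p = 3.95e-05), and male KO lay below female KO (log2 difference -1.22, SE 0.12, limma adjusted p = 0.000708). Over the 12 libraries, which are 4 groups of 3, log2(TPM+1) of Prrx1 and Hand2 had a Pearson r of 0.957, the highest of the 45 pairs of the 10 genes.

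**Figure D2:**
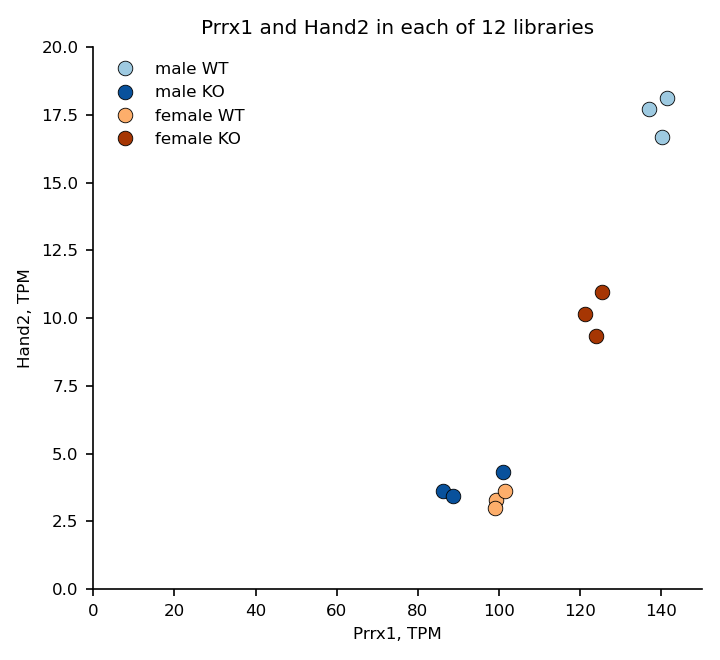
TPM of Hand2 (vertical axis) against TPM of Prrx1 (horizontal axis) in each of the 12 libraries, both axes linear from 0. The 3 male WT libraries sit at the upper right, female KO below them, and male KO and female WT share the lower left.

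The promoters of these genes are shown because the pair moved together. RefSeq (GRCm38.p6) promoter windows were matched for 5 of the 10 genes, and 3 are printed, that of Shox2 further below. Those here are the 190 bases of chr1:163313711-163313900 on the minus strand, before the GENCODE start of Prrx1, and the 250 bases of chr8:57320733-57320982 on the plus strand, before that of Hand2. Capitals mark TAATTA, a homeodomain core, and CANNTG, the E-box read by basic helix-loop-helix factors.
Prrx1: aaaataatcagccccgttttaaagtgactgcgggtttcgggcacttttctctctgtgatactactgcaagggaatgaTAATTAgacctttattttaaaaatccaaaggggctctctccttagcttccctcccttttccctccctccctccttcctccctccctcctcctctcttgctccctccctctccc
Hand2: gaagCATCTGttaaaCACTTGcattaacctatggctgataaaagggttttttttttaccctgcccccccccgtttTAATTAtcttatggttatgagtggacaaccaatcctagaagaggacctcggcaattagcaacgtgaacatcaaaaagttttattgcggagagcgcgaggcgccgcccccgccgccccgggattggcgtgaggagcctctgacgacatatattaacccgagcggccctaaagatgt
Both strands were searched for TAATTA and for CANNTG, as well as for the T-box core GGTGTG, the site TAATCC of Pitx factors and the TATA box TATAAA. The Prrx1 and Hand2 windows each hold 1 TAATTA, which 4.84% of 32851 RefSeq windows of 250 bases hold, and that of Hand2 holds 2 CANNTG, which 66.2% hold. The full 250 bases of the Prrx1 window also hold 1 TAATTA. The other motifs have no match in either. GC content is 48.9% in the 190 bases of Prrx1 and 49.2% in the 250 of Hand2, beside a median of 52.4% over all windows of 250 bases. The Hand2 window lies within the Hand2os1 gene on the other strand, a noncoding RNA not analysed here. Of the 31-base words in the annotated transcripts of Hand2, 17.4% also occur in another gene, nearly all in Hand2os1. Strandedness of the libraries is not given in the sources used here, so reads of the pair cannot be told apart where they overlap.

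Shox2 (ENSMUSG00000027833.16, chromosome 3, 66971727 to 66981771, minus strand), a homeodomain factor of the proximal limb skeleton and of the sinoatrial node, rose in KO of both sexes. It had 15.1, 15.8 and 15.6 TPM in male WT, but 52.6, 54.7 and 52.1 in male KO. Female WT had 6.70, 8.93 and 7.83 TPM and female KO 22.2, 22.8 and 30.3. The 4 groups did not overlap, in the order male KO, female KO, male WT, female WT. The log2 fold change was 1.71 in males (SE 0.057, limma adjusted p = 7.67e-06) and 1.56 in females (SE 0.15, limma adjusted p = 0.00146). The interaction was 0.15 (SE 0.16, limma adjusted p = 0.637), so a difference between the sexes in the KO effect was not detected. Male libraries had more Shox2 than female ones in WT (log2 difference 0.91, SE 0.11, limma adjusted p = 0.00237) and in KO (1.06, SE 0.12, limma adjusted p = 0.00112). The cartilage sum given above was also higher in KO of both sexes, and its part in the rise of Shox2 was not tested.

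The Shox2 promoter is shown as that of the gene with the smallest adjusted p in the male KO comparison among the 10. It spans 250 bases at chr3:66981772-66982021 on the minus strand, and capitals mark TATAAA.
Shox2: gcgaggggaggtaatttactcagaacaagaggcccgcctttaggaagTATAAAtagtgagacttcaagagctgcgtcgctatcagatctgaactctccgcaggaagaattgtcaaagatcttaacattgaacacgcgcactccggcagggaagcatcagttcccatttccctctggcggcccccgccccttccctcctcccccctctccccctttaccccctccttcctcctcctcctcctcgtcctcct
TATAAA occurs 1 time here and in 12.4% of all windows, and the other motifs have no match. GC content is 55.6%. The window lies in the body of Rsrc1, a plus-strand gene that overlaps Shox2, and 3.72% of the 31-base words of Shox2 occur in Rsrc1. Rsrc1 itself was not called, with a log2 fold change of 0.038 for the male KO (limma adjusted p = 0.754) and of 0.17 for the female KO (limma adjusted p = 0.190), and its TPM ran from 25.2 to 32.1 over the 12 libraries.

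Tbx15 (ENSMUSG00000027868.11, chromosome 3, 99240381 to 99354259, plus strand), a T-box factor of the shoulder blade and dorsal skin, separated the sexes. Its TPM were 81.1, 83.2 and 78.0 in male WT and 78.8, 74.4 and 77.8 in male KO. They were 20.4, 26.1 and 17.8 in female WT and 30.9, 27.1 and 26.9 in female KO. Each male library had more than 2 times the TPM of each female library, and the male groups overlapped. Male WT lay above female WT by 1.88 on the log2 scale (SE 0.13, limma adjusted p = 0.000196) and male KO above female KO by 1.42 (SE 0.067, limma adjusted p = 2.54e-05). KO and WT were not called as different in males (log2 fold change -0.067, SE 0.047, limma adjusted p = 0.358) or in females (0.40, SE 0.14, limma adjusted p = 0.118). Without female WT replicate 2 the female value was 0.54 and passed (limma adjusted p = 0.0354, in a range from 0.0312 to 0.271 over the alternatives), and the interaction moved from -0.47 (limma adjusted p = 0.0719) to -0.61 (limma adjusted p = 0.00315, in a range up to 0.154).

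Emx2 (ENSMUSG00000043969.4, chromosome 19, 59458372 to 59465357, plus strand), a homeodomain factor of the shoulder girdle, urogenital tract and forebrain, was likewise higher in males. It had 10.6, 14.9 and 12.1 TPM in the male WT libraries, 14.2, 16.1 and 13.6 in male KO, 6.12, 6.04 and 3.81 in female WT and 8.29, 7.56 and 8.43 in female KO. All male libraries lay above all female libraries, and male KO and male WT overlapped. The difference between the sexes was 1.11 in WT (SE 0.19, limma adjusted p = 0.0114) and 0.78 in KO (SE 0.097, limma adjusted p = 0.00211). The WT call was lost without the filter on low values (limma adjusted p = 0.0594, in a range from 0.000536). KO against WT gave 0.22 in males (SE 0.13, limma adjusted p = 0.296) and 0.55 in females (SE 0.17, limma adjusted p = 0.0915), neither past the threshold. With all 12 libraries in 1 fit the female value passed (limma adjusted p = 0.0422). Of the 31-base words of Emx2, 7.81% occur in its antisense gene Emx2os, not analysed here.

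**Figure D3:**
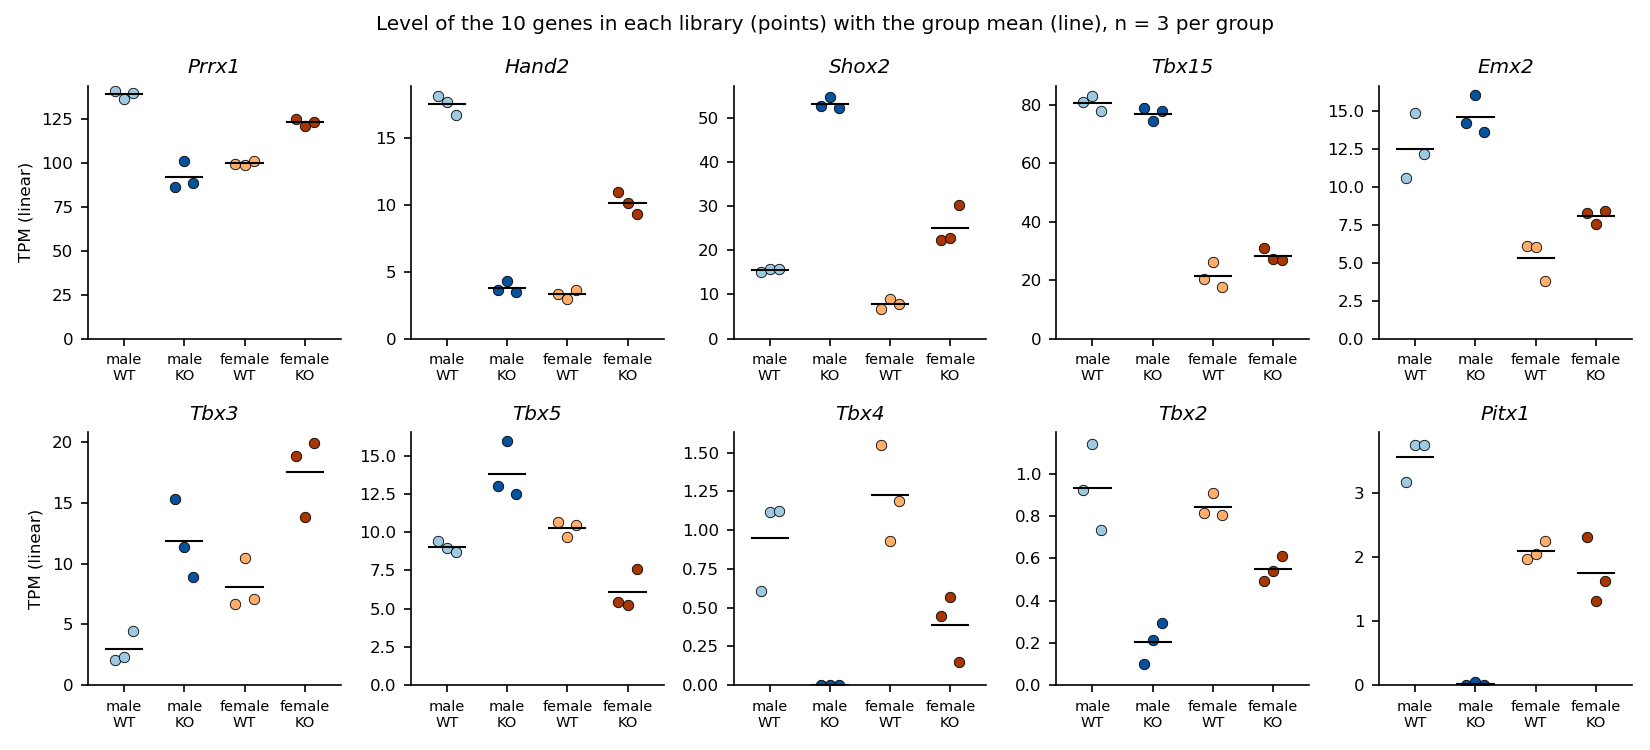
TPM of each of the 10 genes in each library (points, n = 3 per group) with the group mean (line), on linear axes that start at 0 and differ between panels. Tbx15 and Emx2 split by sex, Shox2 is higher in KO of each sex, and Prrx1 and Hand2 are high in male WT and female KO. Pitx1 and Tbx4 lie at or near 0 in male KO.

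Tbx3 (ENSMUSG00000018604.18, chromosome 5, 119670669 to 119684724, plus strand), a T-box repressor of limb and mammary bud, was higher in KO of both sexes. Its TPM were 2.02, 2.29 and 4.47 in male WT and 15.3, 11.4 and 8.89 in male KO. Female WT libraries had 6.64, 10.5 and 7.05 TPM and female KO libraries 18.8, 13.9 and 19.9. Male WT was lowest and apart from the other groups, whereas female WT overlapped male KO and male KO overlapped female KO. Tbx3 rose by 1.73 on the log2 scale in male KO (SE 0.27, limma adjusted p = 0.00520), a call kept in every alternative run. The rise of 1.04 in female KO (SE 0.20, limma adjusted p = 0.0200) was lost without the filter and when female WT replicate 1 or 3 or female KO replicate 1 or 3 was left out (limma adjusted p from 0.0143 to 0.0807 over the alternatives). Without those libraries in turn it was 0.93, 0.97, 0.99 and 0.95. Male WT lay below female WT (log2 difference -1.23, SE 0.27, limma adjusted p = 0.0268), but the call was lost without the filter and without male WT replicate 1 or 2 or any 1 female WT library, where the value ran from -1.34 to -1.05 (limma adjusted p from 0.00698 to 0.108 over the alternatives).

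Tbx2 (ENSMUSG00000000093.6, chromosome 11, 85832551 to 85841948, plus strand), the close relative of Tbx3, was under or near 1 TPM everywhere. It had 0.925, 1.14 and 0.736 TPM in the male WT libraries, 0.102, 0.212 and 0.293 in male KO, 0.817, 0.909 and 0.806 in female WT and 0.491, 0.542 and 0.610 in female KO. Male KO was lowest and female KO next, each apart from the others, and the WT groups overlapped. In the fit without a filter Tbx2 fell by 0.68 on the log2 scale in male KO (SE 0.10, limma adjusted p = 0.0225), and a pseudocount of 1 understates changes at such levels. That call was lost without male WT replicate 1 or 2 or any 1 male KO library, where the value ran from -0.74 to -0.61 (limma adjusted p up to 0.0784). In females the difference was -0.25 (SE 0.047, limma adjusted p = 0.0587), not past the threshold. With no mean-variance trend the female difference passed (limma adjusted p = 0.0413).

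Tbx5 (ENSMUSG00000018263.11, chromosome 5, 119832668 to 119885219, plus strand), the forelimb and heart T-box factor, differed in opposite directions by sex. Its TPM were 9.41, 8.95 and 8.72 in male WT and 13.0, 16.0 and 12.5 in male KO, against 10.7, 9.68 and 10.4 in female WT and 5.41, 5.23 and 7.60 in female KO. The groups did not overlap, with male KO highest and female KO lowest. Tbx5 rose by 0.56 on the log2 scale in male KO (SE 0.11, limma adjusted p = 0.0131) and fell by 0.68 in female KO (SE 0.14, limma adjusted p = 0.0280). The interaction was 1.24 (SE 0.18, limma adjusted p = 0.000812), a call kept in every alternative. The male call was lost without male WT replicate 3 (log2 fold change 0.53, limma adjusted p = 0.0506, in a range from 0.00783). The female call was lost without the filter and without any 1 female WT library or female KO replicate 1 or 2, where the value ran from -0.72 to -0.60 (limma adjusted p from 0.00481 to 0.0923 over the alternatives). Male WT and female WT were not called as different (-0.17, SE 0.084, limma adjusted p = 0.254), and male KO lay above female KO by 1.07 (SE 0.16, limma adjusted p = 0.00483).

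Pitx1 (ENSMUSG00000021506.7, chromosome 13, 55825051 to 55836192, minus strand), the homeodomain factor of hindlimb and pituitary, was nearly absent from male KO. It had 3.18, 3.76 and 3.75 TPM in male WT, whereas male KO replicates 1 and 3 were listed at 0 and replicate 2 had 0.0543 TPM. Female WT had 1.97, 2.05 and 2.25 TPM and female KO 2.31, 1.31 and 1.63. Male KO stood apart from all others, male WT was highest, and the female groups overlapped. On the log2(TPM+1) scale Pitx1 fell by 2.16 in male KO (SE 0.17, limma adjusted p = 0.000188), and the female difference was -0.18 (SE 0.18, limma adjusted p = 0.558). The interaction was -1.98 (SE 0.23, limma adjusted p = 0.000151). Male KO lay below female KO (log2 difference -1.42, SE 0.21, limma adjusted p = 0.00451), a call kept in every alternative. With male KO at or near 0, the pseudocount sets the size of these 3 values. Over the alternatives they reached -4.98 for male KO against male WT, -4.71 for the interaction and -3.97 for male KO against female KO. Male WT lay above female WT by 0.56 (SE 0.13, limma adjusted p = 0.0371), but that call was lost without the filter and without any 1 of the 6 WT libraries, where the value ran from 0.53 to 0.62 (limma adjusted p from 0.00850 to 0.106 over the alternatives).

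Tbx4 (ENSMUSG00000000094.12, chromosome 11, 85886422 to 85916097, plus strand), the hindlimb and lung T-box factor, showed the same absence. It had 0.604, 1.12 and 1.12 TPM in male WT and was listed at 0 in the 3 male KO libraries, so no ratio of levels is given. Female WT had 1.55, 0.928 and 1.19 TPM and female KO 0.443, 0.565 and 0.1495. The KO groups lay apart from each other and below both WT groups, which overlapped. In the fit without a filter the male difference of -0.95 in log2(TPM+1) passed (SE 0.12, limma adjusted p = 0.0154). It did not pass without male WT replicate 2 or 3 or any 1 male KO library, where the difference in log2(TPM+1) ran from -0.95 to -0.88 (limma adjusted p up to 0.0665). The pseudocount sets its size here too, and over all alternatives it reached -3.35. The female difference was -0.68 (SE 0.16, limma adjusted p = 0.108), not past the threshold, and the interaction was not called (limma adjusted p = 0.635). With all 12 libraries in 1 fit the female difference passed (limma adjusted p = 0.0242).

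In TPM, Prrx1 and Tbx15 were the high members of the group. The mean of Prrx1 in male WT exceeded that of 90.5% of the 12504 filtered genes, and in male KO 84.9%. Tbx15 stood above 82.3% in male WT and 49.2% in female WT. Shox2 went from above 41.3% in male WT to 73.5% in male KO, and from 26.8% to 53.4% in the female groups. Hand2 went from 44.1% down to 16.3% in males and from 14.0% up to 32.0% in females. Pitx1 stood above 15.6% in male WT and 0.256% in male KO. Tbx4 never exceeded 3.10%, and Tbx2 never 2.26%.

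Among the 45 pairs of the 10 genes, correlations of log2(TPM+1) over the 12 libraries describe 4 groups of 3, not 12 independent points. After Prrx1 and Hand2, the highest r was 0.927 for Tbx15 with Emx2 and then 0.907 for Tbx2 with Pitx1. Tbx4 and Shox2 had the lowest, -0.947. Tbx3 and Tbx5, which lie next to each other on chromosome 5 with starts 162.0 kb apart, had an r of -0.186. Tbx2 and Tbx4, neighbours on chromosome 11 with starts 53.9 kb apart, had an r of 0.847.

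The genes outside the group with the highest r to each of the 8 tested members were also read over the same 12 libraries. Prrx1 was most like Aqp1, a water channel (r = 0.974), which had means of 55.5 TPM in male WT, 12.2 in male KO, 18.0 in female WT and 41.3 in female KO. Hand2 was most like Adgra2 (r = 0.974), with 82.8, 57.7, 53.6 and 68.2 TPM in the same order. Shox2 was most like Olfml3 (r = 0.981), Nt5e (r = 0.981) and Crip1 (r = 0.981), the last with 119, 289, 91.5 and 161 TPM. Tbx15 was most like Il1rl1 (r = 0.977), which had 808 and 875 TPM in the male groups and 283 and 299.6 in the female groups, and the Y-linked Ddx3y was among its 3 closest (r = 0.976). Emx2 was most like Prrx2, the paralog of Prrx1 (r = 0.958), with 229.7, 269, 117 and 158 TPM. Pitx1 was most like Ddx39 (r = 0.985), Tbx5 most like Enah, an actin regulator (r = 0.960), and Tbx3 most like Tfpi, a coagulation inhibitor (r = 0.943).

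Genes around the 10 were read for position. Within 500 kb of a member lie the bodies of 45 other genes that passed the filter, 19 of them near Pitx1. In male KO 12 of the 45 were called, beside the 21.6% of all genes, and in female KO 6, beside 11.5%. Between the sexes 6 were called in WT and 9 in KO, beside 12.8% and 16.6%.

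Near Pitx1, the chemokine gene Cxcl14 had 8.82, 9.25 and 9.81 TPM in male WT, but 53.5, 52.1 and 51.2 in male KO. In females it had 17.0, 14.0 and 14.8 TPM in WT and 35.3, 30.6 and 33.6 in KO. KO lay above WT in each sex without overlap. Cxcl14 rose by 2.37 in males (SE 0.067, limma adjusted p = 5.65e-06) and by 1.07 in females (SE 0.092, limma adjusted p = 0.000945) on the log2 scale, while Pitx1 fell in males. Near Shox2, Rarres1 rose by 3.19 in male KO (SE 0.17, limma adjusted p = 3.38e-05), from a mean of 0.919 TPM to 16.6, and Lxn by 0.97 (SE 0.056, limma adjusted p = 5.58e-05), from 47.3 TPM to 93.3. Neither was called in female KO, and the interaction was 2.61 for Rarres1 (SE 0.34, limma adjusted p = 0.000314) and 0.64 for Lxn (SE 0.13, limma adjusted p = 0.00534). Near Emx2, Shtn1, a regulator of neuronal polarity, fell by 2.84 in male KO (SE 0.16, limma adjusted p = 4.12e-05), from a mean of 6.59 TPM to 0.0636, and by 0.92 in female KO (SE 0.17, limma adjusted p = 0.0187). That female call was lost without any 1 female WT library or female KO replicate 1 or 3, with values from -0.97 to -0.86 (limma adjusted p up to 0.0633). Shtn1 passed the filter only through male WT, where it is high, and no conclusion is drawn from its calls. Near Prrx1, Fmo1 rose by 1.104 in male KO (SE 0.21, limma adjusted p = 0.0114), opposite to Prrx1, with an interaction of 1.31 (SE 0.30, limma adjusted p = 0.0142). Its means were 0.636 TPM in male WT, 2.51 in male KO, 0.912 in female WT and 0.636 in female KO. Fmo1 thus passed the filter only through male KO, where it is high, and no conclusion is drawn from its calls. Besides Rsrc1, the closest neighbours, Wars2 at 1.20 kb from Tbx15 and Bcas3 at 6.49 kb from Tbx2, were not called in any comparison. The called neighbours named above lay far from their members: Cxcl14 at 452 kb, Rarres1 at 497 kb, Lxn at 476 kb, Shtn1 at 382 kb and Fmo1 at 379 kb. Whether their changes are tied to position was not tested.

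**Figure D4:**
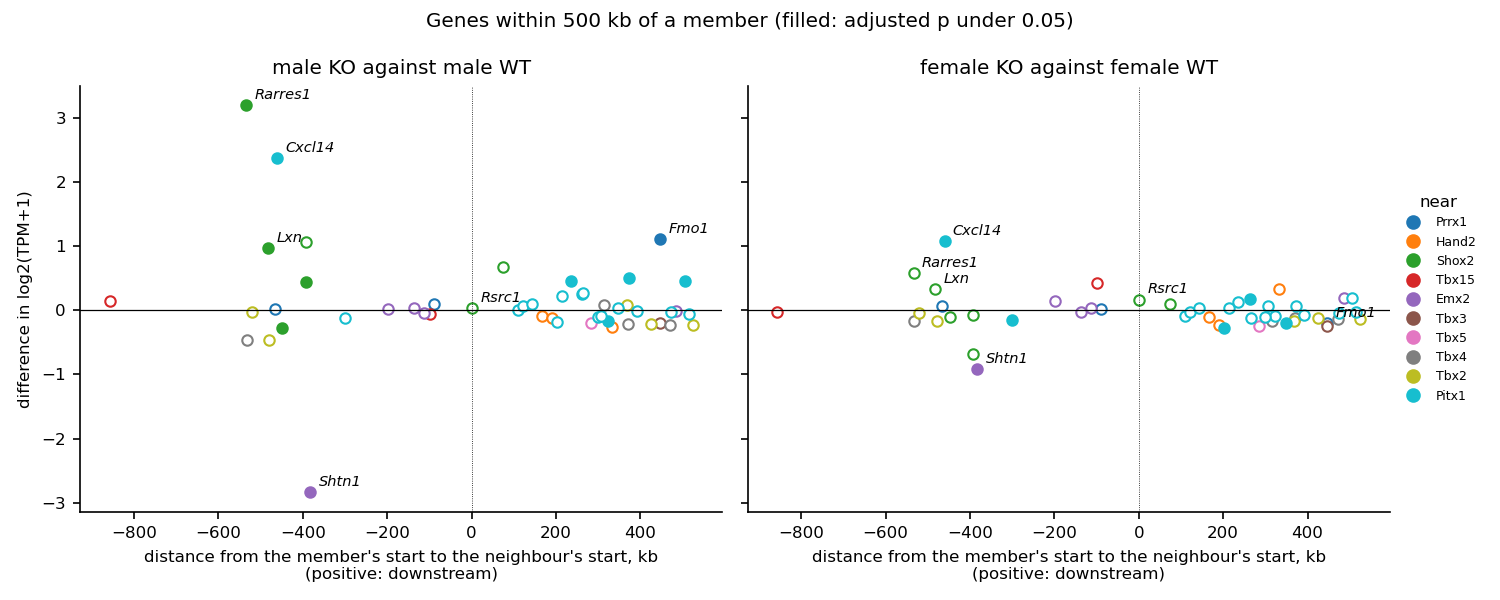
Difference in log2(TPM+1) between KO and WT (vertical axis) for genes within 500 kb of a member, against the distance from the member's start to the gene's start in kb (horizontal axis, positive downstream of the member), in males (left) and females (right). Points are coloured by member and filled where the limma adjusted p was under 0.05. Rarres1, Cxcl14 and Shtn1 lie farthest from 0 in males.

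Other factors of limb mesenchyme were read as a list of 36 genes, 25 of which passed the filter. In male KO 17 were called, 13 higher and 4 lower, beside 21.6% of all genes, and in female KO 14, 10 higher and 4 lower, beside 11.5%. Their median log2 fold change was 0.49 for male and 0.15 for female KO, and the median absolute value 0.52 and 0.41. Sall1, a zinc finger factor, rose by 1.83 in male KO (SE 0.17, limma adjusted p = 0.000438), from a mean of 0.251 TPM to 3.44, and Osr1 rose by 1.23 (SE 0.073, limma adjusted p = 5.93e-05), from 21.3 TPM to 51.3. The means of Sall1 were 0.979 TPM in female WT and 1.03 in female KO. Sall1 thus passed the filter only through male KO, where it is high, and no conclusion is drawn from its calls. Msx1, a homeodomain factor of limb and jaw mesenchyme, fell by 1.36 in male KO (SE 0.16, limma adjusted p = 0.00132) and rose by 1.05 in female KO (SE 0.16, limma adjusted p = 0.00959). Its means were 6.28 TPM in male WT, 1.85 in male KO, 2.54 in female WT and 6.28 in female KO, high in male WT and female KO as for Hand2. The interaction was -2.42 for Msx1 (SE 0.22, limma adjusted p = 2.55e-05) 1.80 for Sall1 (SE 0.23, limma adjusted p = 0.000321) and 1.08 for Osr1 (SE 0.0997, limma adjusted p = 2.55e-05). En1, a marker of ventral limb ectoderm and dermomyotome, rose by 1.17 in female KO (SE 0.071, limma adjusted p = 0.000254) and by 0.92 in male KO (SE 0.10, limma adjusted p = 0.00102). Lmx1b, the dorsal limb factor, rose by 1.04 in male KO (SE 0.14, limma adjusted p = 0.00231), from 2.23 TPM to 5.64. It fell by 1.104 in female KO (SE 0.24, limma adjusted p = 0.0323), but the call was lost without any 1 of the 6 female libraries, with values from -1.23 to -0.89 (limma adjusted p from 0.00298 to 0.0886 over the alternatives). Without 1 library the female count ran from 8 to 11, with 9 without female WT replicate 3 and 8 without female KO replicate 3.

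Signals of the limb bud were a list of 22 genes with 15 tested. In male KO 12 were called (4 higher, 8 lower), beside 21.6% of all genes, and in female KO 7 (4 higher, 3 lower), beside 11.5%. The male count fell to 7, that of the females, without male KO replicate 1 or 3. Crabp2, which binds retinoic acid, fell by 2.20 in male KO (SE 0.050, limma adjusted p = 2.72e-06), from a mean of 124 TPM to 26.2. Rarb, a retinoic acid receptor, fell by 1.995 (SE 0.20, limma adjusted p = 0.000627) and Bmp2 by 1.70 (SE 0.16, limma adjusted p = 0.000466). In female KO Crabp1 rose by 1.19 (SE 0.032, limma adjusted p = 1.43e-05), from 299.4 TPM to 683, and Aldh1a2, which makes retinoic acid, fell by 1.95 (SE 0.20, limma adjusted p = 0.00191), from 3.19 TPM to 0.0674. Both went the other way in male KO: Crabp1 fell by 0.48 (SE 0.048, limma adjusted p = 0.000670), from 352 TPM to 252, and Aldh1a2 rose by 0.84 (SE 0.19, limma adjusted p = 0.0202), from 0.121 TPM to 1.003. That call of Aldh1a2 was lost without male WT replicate 3, male KO replicate 1 or male KO replicate 3, with values from 0.79 to 0.88 over the libraries left out (limma adjusted p up to 0.0593). By the interaction test the sexes differed for Crabp2 (-2.24, SE 0.11, limma adjusted p = 2.43e-07), Rarb (-2.29, SE 0.34, limma adjusted p = 0.000769), Bmp2 (-1.95, SE 0.20, limma adjusted p = 4.83e-05) and Crabp1 (-1.67, SE 0.059, limma adjusted p = 2.46e-08). The interaction of Aldh1a2 was 2.79 (SE 0.26, limma adjusted p = 2.98e-05). Aldh1a2 passed the filter only through female WT, where it is high, so no conclusion is drawn from its calls.

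The hedgehog pathway list held 12 genes. Of its 8 tested genes, 4 were called in male KO (3 higher, 1 lower), beside 21.6% of all genes, and 2 in female KO, both higher, beside 11.5%. These counts fell to 2 in males without any 1 male WT library or male KO replicate 1 or 2, and to 1 in females without any 1 library, close to the shares of all genes. Gas1, a hedgehog co-receptor, rose by 0.95 in male KO (SE 0.069, limma adjusted p = 0.000154) and by 0.50 in female KO (SE 0.069, limma adjusted p = 0.00680).

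Factors of trunk and head were a list of 33 genes with 18 tested, of which 9 were called in male KO (4 higher, 5 lower), beside 21.6% of all genes, and 8 in female KO (2 higher, 6 lower), beside 11.5%. The female count was 5 without any 1 female WT library. Foxd1, a forkhead factor of kidney stroma, rose by 3.00 in male KO (SE 0.13, limma adjusted p = 1.90e-05), from 0.895 TPM to 14.1, and by 0.83 in female KO (SE 0.17, limma adjusted p = 0.0284), from 1.32 TPM to 3.11. Nr2f1, a nuclear receptor of neural crest and brain, fell by 3.34 in male KO (SE 0.22, limma adjusted p = 9.59e-05), from 66.4 TPM to 5.81, and by 1.24 in female KO (SE 0.21, limma adjusted p = 0.0150), from 39.6 TPM to 16.1. The female call of Foxd1 was lost without the filter and without female WT replicate 2 or 3 or female KO replicate 1 or 2, with values from 0.76 to 0.94 over the libraries left out (limma adjusted p up to 0.0899). That of Nr2f1 was lost without the filter and without female WT replicate 1 or 3, with values from -1.45 to -1.07 (limma adjusted p up to 0.0588). Barx1, a homeodomain factor of stomach and tooth mesenchyme, rose by 2.28 in female KO (SE 0.15, limma adjusted p = 0.000313), from 0.210 TPM to 4.85. Its male means were 0.334 TPM in WT and 1.41 in KO. Barx1 thus passed the filter only through female KO, where it is high, and no conclusion is drawn from its calls. The interaction was 2.18 for Foxd1 (SE 0.21, limma adjusted p = 4.06e-05), -2.10 for Nr2f1 (SE 0.34, limma adjusted p = 0.00143) and -1.47 for Barx1 (SE 0.31, limma adjusted p = 0.00801).

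Of 12 other T-box genes, 4 were tested, and 2 were called in male KO and 2 in female KO, 1 higher and 1 lower in each, beside 21.6% and 11.5% of all genes. Tbx1 rose in male KO by 1.54 (SE 0.28, limma adjusted p = 0.00908) and in female KO by 1.04 (SE 0.18, limma adjusted p = 0.0153). Tbx20 fell by 1.48 in male KO (SE 0.17, limma adjusted p = 0.00134) and by 1.12 in female KO (SE 0.18, limma adjusted p = 0.0125). The female call of Tbx1 was lost without female WT replicate 1 or 3 or female KO replicate 3, with values from 0.90 to 1.17 over the libraries left out (limma adjusted p up to 0.0540), which took the count of this list from 2 to 1. A filter at 5 TPM leaves out both genes.

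The Hox genes, which pattern the trunk and limb along their length, were taken as groups 1 to 8 and 9 to 13. Of 19 tested genes of groups 1 to 8, 8 were called in male KO (7 higher, 1 lower), beside 21.6% of all genes, and 12 in female KO (11 higher, 1 lower), beside 11.5%, with 5 in males without male WT replicate 2 or 3. Hoxb6 rose by 1.52 in female KO (SE 0.087, limma adjusted p = 0.000201), from 9.96 TPM to 30.6, and Hoxd8 by 1.27 in male KO (SE 0.10, limma adjusted p = 0.000255). Hoxd8 also rose by 0.61 in female KO (SE 0.13, limma adjusted p = 0.0285), a call lost without the filter and without any 1 female WT library or female KO replicate 1 or 3, with values from 0.54 to 0.72 over the libraries left out (limma adjusted p up to 0.0877). Of 13 tested genes of groups 9 to 13, 5 were called in male KO (3 higher, 2 lower) and 9 in female KO (6 higher, 3 lower). Hoxc10 rose by 2.83 in female KO (SE 0.19, limma adjusted p = 0.000322), from 1.12 TPM to 13.9. It passed the filter only through female KO, where it is high, and no conclusion is drawn from its calls. Hoxd13, a factor of the distal limb, fell by 0.92 in male KO (SE 0.037, limma adjusted p = 1.45e-05), from 138 TPM to 72.4. The interaction was -1.63 for Hoxb6 (SE 0.16, limma adjusted p = 4.82e-05) and -0.94 for Hoxd13 (SE 0.057, limma adjusted p = 1.10e-06). That of Hoxc10 (-2.70, SE 0.26, limma adjusted p = 2.91e-05) restates the female change. Its male means were only 0.0854 TPM in WT and 0.187 in KO, so it says nothing of males.

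A list of 8 genes reported downstream of Tbx2, Tbx3, Tbx5 or Prrx1 had 6 tested, of which 4 were called in male KO (1 higher, 3 lower), beside 21.6% of all genes, and 2 in female KO (1 higher, 1 lower), beside 11.5%. Gja1, a gap junction gene repressed by Tbx2, fell by 0.65 in male KO (SE 0.047, limma adjusted p = 0.000149), with an interaction of -0.68 (SE 0.059, limma adjusted p = 1.45e-05). Cdkn1a, a cell cycle inhibitor that Tbx2 and Tbx3 repress, rose by 0.23 in male KO (SE 0.041, limma adjusted p = 0.00850) and by 0.34 in female KO (SE 0.054, limma adjusted p = 0.0117). Cdkn2a fell by 0.24 in male KO (SE 0.044, limma adjusted p = 0.00927). Tnc, a matrix gene, fell by 0.42 in male KO (SE 0.063, limma adjusted p = 0.00417) and by 0.47 in female KO (SE 0.026, limma adjusted p = 0.000201). The 2 genes of the list under the filter were Nppa and Gja5.

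**Figure D5:**
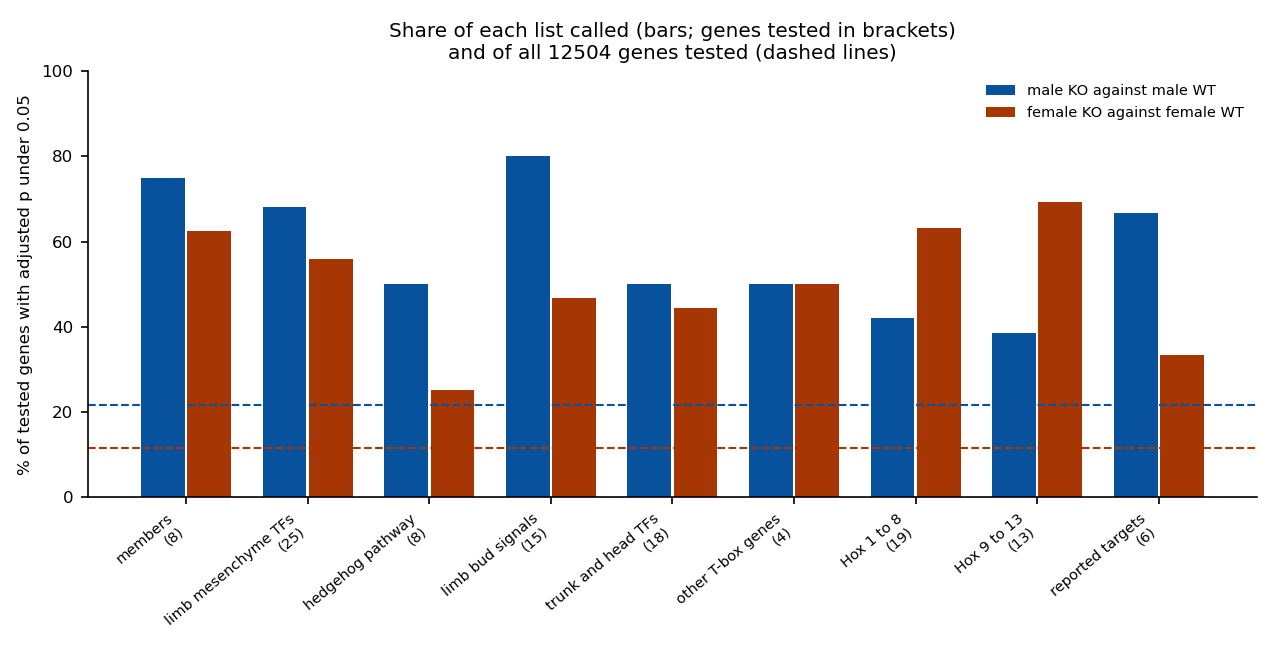
Share of tested genes with a limma adjusted p under 0.05 (vertical axis, %) for the 10 genes and each list (horizontal axis, tested genes in brackets), in male KO against male WT (blue bars) and female KO against female WT (red bars). Dashed lines give the shares of all 12504 genes, 21.6% in males and 11.5% in females, and the bars of all lists lie above them.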

How the data were processed

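The deposited TPM table (1 column for each of 12 libraries, 34866 genes) was used; the authors made its TPM with Salmon 1.10.1 against GRCm38, per the processing notes. Ensembl identifiers were matched to a GENCODE annotation of GRCm38 (99.4% of them). Read totals and strandedness are not given in the sources used here. Each library had from 12256 to 12637 genes of at least 1 TPM, and 12465 genes were listed at 0 in all.

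The tests used limma 3.58.1 in R 4.3.3 (lmFit, and eBayes with a mean-variance trend) on log2(TPM+1) of the 12504 genes with a mean of 1 TPM or more, with Benjamini-Hochberg adjustment over all genes and no fold threshold. Pairwise fits used 6 libraries and the interaction fit all 12. The code was tested on simulated data with known changes.

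The members and lists were chosen with earlier results of these data known. Named genes are the members, label checks, up to 4 called genes of each list and comparison with the largest absolute log2 fold change, genes within 500 kb of a member, and the 3 genes with the highest r to each member. The lists are limb mesenchyme factors, hedgehog pathway, limb bud signals, trunk and head factors, other T-box genes, Hox groups 1 to 8 and 9 to 13, and reported targets, beside 9 lists of cell type markers, 1 of them not given here. The alternatives were a pseudocount of 0.1, no filter, a filter at 5 TPM, no trend, scaling by median of ratios or by quantiles, all 12 libraries in 1 fit, the replicate number as a block, and each library left out.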

Additional observations from a re-analysis of the deposited data

Results flagged for a closer look

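The results here are among those in which the male KO effect differed from the female KO effect by the interaction test (limma adjusted p under 0.05). Each value is the male minus the female log2 fold change on log2(TPM+1). Among the 10 genes it was 1.24 for Tbx5, -1.98 for Pitx1, -0.90 for Prrx1 and -3.33 for Hand2.

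For each list only the called genes with the largest absolute values are given, at most 4, and in some lists other genes also passed. In limb mesenchyme it was -2.42 for Msx1, 2.14 for Lmx1b, 1.80 for Sall1 and 1.504 for Osr2. In the hedgehog list Gli2 had -0.63 and Gas1 0.45. Among limb bud signals the values were 2.79 for Aldh1a2, -2.29 for Rarb, -2.24 for Crabp2 and -1.95 for Bmp2. Trunk and head factors gave 2.80 for Wt1, 2.18 for Foxd1, -2.10 for Nr2f1 and -1.86 for Eya1. Of the Hox genes, Hoxb6 had -1.63, Hoxa4 1.44, Hoxb8 -1.41, Hoxa6 1.31, Hoxc10 -2.70, Hoxc11 -2.70, Hoxb9 -2.50 and Hoxc12 -2.32. Hoxc12 was listed at 0 in all male libraries, so its value is the female change alone and says nothing of males. Hoxc10 and Hoxc11 had male means of at most 0.187 and 0.319 TPM, so theirs too rest on females. Gja1 had -0.68.

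Among the neighbours it was 1.30 for Cxcl14, 0.23 for Dbn1, -1.91 for Shtn1, 0.64 for Lxn, 0.51 for Mlf1, 2.61 for Rarres1, 1.31 for Fmo1 and -0.59 for Galnt7. Of the genes in this section, Fmo1 and Sall1 passed the filter only through male KO, Shtn1 only through male WT and Aldh1a2 only through female WT. Hoxc10, Hoxc11 and Hoxc12 passed it only through female KO. No conclusion is drawn from the calls of these genes. The calls of Gli2, Dbn1 and Mlf1 were lost in 11, 12 and 13 of 19 alternatives. What made the sexes differ was not tested.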

How the results depend on the processing

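Of 50 member log2 fold changes, 31 were called; 23 of these were kept in every alternative, 8 were lost in at least 1, and none was reversed over the alternatives run. Those of Prrx1, Hand2 and Shox2 were all kept. Of 19 not called, 8 passed in at least 1 alternative. Tbx2 between male and female WT (0.064, not called) reversed to -0.012 without male WT replicate 2 and reached 0.14 without male WT replicate 3; the cause was not tested. In the female KO comparison the genes called fell from 1434 to between 774 (without female WT replicate 3) and 835 (without female KO replicate 2), and the members called from 5 to between 3 and 5 with 1 library left out and to 3 without the filter. Between male and female WT the genes called were 1037 to 1243 with 1 library left out and the members called 4 without the filter, and between male and female KO the genes called were 1328 to 1824.

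Replicate numbers are only shared labels: the deviations of same-numbered libraries from their own group means correlated over genes from -0.0571 to 0.0779. By these deviations, 3 of 12 correlated best with their own number. With the replicate block 670 genes and 3 members were called in the female KO comparison. The block left uncalled Tbx2 and Tbx4 between the male groups (limma adjusted p = 0.109 and 0.0764), Tbx3 and Tbx5 between the female groups (limma adjusted p = 0.0777 and 0.0600), and Tbx3 and Pitx1 between the WT sexes (limma adjusted p = 0.0554 and 0.0906), and it changed no other member call. Without the filter, the fit used for Tbx2 and Tbx4, limma with the replicate block called 374 genes higher and 313 lower in male KO (1118 and 1217 without the block), 0 in female KO (1126 without it), 23 higher and 9 lower between the WT sexes (605 and 670) and 108 and 62 between the KO sexes (851 and 833). The list counts that the replicate block moved by 1.5 times or more were limb mesenchyme factors from 14 to 8 in female KO and from 14 to 9 between the WT sexes, hedgehog genes from 4 to 2 in male and from 2 to 1 in female KO, limb bud signals from 12 to 7 in male KO, trunk and head factors from 8 to 5 in female KO and from 5 to 3 between the WT sexes, Hox genes of groups 1 to 8 from 12 to 8 in female KO, and other T-box genes from 2 to 3 in male KO, from 2 to 0 in female KO and from 1 to 0 between the WT sexes.

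In the KO comparisons a filter at 5 TPM took limb bud signals from 12 to 7 in male and from 7 to 4 in female KO, trunk and head factors from 9 to 5 and from 8 to 4, and other T-box genes from 2 to 0 in both, since it leaves out Tbx1 and Tbx20. Between the WT sexes it took Hox genes of groups 1 to 8 from 16 to 10, trunk and head factors from 5 to 1 and other T-box genes from 1 to 0, and between the KO sexes Hox genes of groups 1 to 8 from 14 to 9 and trunk and head factors from 9 to 5. By the interaction these Hox genes went from 10 to 6 and trunk and head factors from 7 to 3.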

Other observations

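The Hox genes also separated the sexes. Of the 19 tested genes of groups 1 to 8, 16 differed between male WT and female WT (1 higher, 15 lower in males) and 14 between male KO and female KO (1 higher, 13 lower), beside 12.8% and 16.6% of all genes. Of the 13 tested of groups 9 to 13, 10 differed in WT (4 higher, 6 lower) and 10 in KO (5 higher, 5 lower). Hoxd13 had 135, 139 and 139 TPM in male WT and 35.6, 37.3 and 34.2 in female WT, without overlap (log2 difference 1.92, SE 0.045, limma adjusted p = 2.91e-06). Hoxb9 had a mean of 2.66 TPM in male KO and 47.8 in female KO (log2 difference -3.75, SE 0.13, limma adjusted p = 7.41e-06).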
